A study of Mus musculus with 4 samples.

Results

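Strong, narrow MSI2 CLIP-seq sites near the downstream ends of long protein-coding genes were found in both genotypes of mouse intestinal epithelium. They numbered 297 of the 12061 sites in the WT list and lay in 286 genes on 20 chromosomes. A site was taken when its WT row was at most 200 nt wide, its WT score was at least 25, a TG row covered at least 1 base of it on the same strand, and it touched exactly 1 gene span, which had to be protein-coding and at least 10 kb long. Its midpoint had to lie within 2 kb of the span end toward which the reads ran. WT score, width, overlap and position therefore chose the sites, and their values are a description. The score is read here as a number of reads per 200-nt bin. Fractional scores occur in rows that join several bins and in some single-bin rows, among them 9 of the 297 in WT. They look like averages, but what was averaged is not recorded.

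CLIP-seq crosslinks a protein to RNA with ultraviolet light, precipitates the protein and sequences the attached RNA. The TG group consisted of 2 libraries of genotype TRE-Msi2 from total intestinal epithelium, taken 24 hours into doxycycline treatment. The WT group consisted of 2 libraries from intestinal crypts, for which no doxycycline is recorded. These tissue fractions are given by the protocol, while the source label of all samples is intestinal epithelial cells. Both groups had the strain background C57BL6. TRE-Msi2 denotes an Msi2 transgene under a tetracycline-response promoter; its transactivator, the ages and any pooling of animals are not stated in the sources used here. Genotype, tissue fraction and doxycycline differed together and cannot be told apart. Each group was deposited as 1 pooled list, with 16939 TG rows and 12061 WT rows, so spread between libraries cannot be given and the genotypes were not tested against each other. Library depth is unknown, and no input or RNA abundance library was used here. A higher score can go with more transcript, more cells that hold it or more binding, and in bulk tissue fewer cells of a type and less RNA per cell cannot be told apart.

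Musashi proteins are RNA-binding proteins known from stem and progenitor cells. They recognise short motifs that contain UAG, often in 3′ untranslated regions, and can change the translation or stability of the bound mRNA. In the intestine, Msi1 and Msi2 are known for their part in crypt stem cells and in epithelial transformation. A gene span ends where the annotated transcript ends, so the last stretch of a long gene usually holds the final exon and the 3′ untranslated region. The gene table used here gives spans and not exons, so no site was assigned to an exon, intron or untranslated region.

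Markers of intestinal epithelium were present in both lists. Of 9 epithelial markers 8 held a TG row and 7 a WT row, and all 8 enterocyte, 4 Paneth and 4 goblet markers held rows in both lists. Of 4 stem cell markers 3 held a TG row and 2 a WT row. The WT material is given as crypts. The enterocyte markers Sis and Mgam held 35 and 23 WT rows, against 44 and 52 in TG, in whole lists of 12061 and 16939 rows. Among these markers only Lyz1 (4 in WT, 2 in TG) and Olfm4 (3 in WT, 2 in TG) held more WT than TG rows. The part of the tissue fraction in these counts was not tested. None of the 8 stromal and 3 endothelial markers held a row in either list, and of 6 immune markers 1, Cd74, did in both. Epcam was the only one of these markers with a strong gene-end site. The limits on row width and span length can exclude a marker whatever its score. Lack of such a site is therefore not in itself lack of strong rows. Among the other markers with WT rows, the top WT score anywhere in the gene ran between 20 (Lgr5) and 97 (Defa24). In Lgr5 and Lgals4 (top WT score 22.5) no WT row reached 25. For the other markers with WT rows, which limit excluded each was not tested. Msi2 held 7 TG and 6 WT rows and Msi1 held 3 TG and 1 WT rows, and neither held a strong gene-end site.

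Most strong narrow WT rows at gene ends recurred in the TG list. Of 309 such rows 297 (96.1%) were overlapped by a TG row, against 87.5% of all 7627 narrow WT rows. Only 20.2% of those 7627 rows reached a score of 25, so the shares differ in score as well as place. The share for strong narrow rows elsewhere is not given, so nothing is read from the gap about gene ends. The 12 without a TG row had WT scores of 27 to 36. The nearest TG row on the strand was 201 nt away at the closest, in Slc25a51 and Xkrx, and 539201 nt away at the farthest, in 6030458C11Rik. Of these 12, 6 had a TG row within 2 kb and 6 had none within 20 kb. These 3 genes are named as the extremes, chosen after their values were seen.

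The median score at the 297 sites was 34 reads per bin in TG (95% interval of the median 32 to 35) and 29 in WT (28 to 30). TG scores ran between 13.4 and 98, with quartiles of 27 and 42. WT scores ran between the threshold of 25 and 60, with quartiles of 26 and 34. A score of 25 or more was reached by 22.7% of the 1308 shared narrow gene-end sites and by 20.2% of all narrow WT rows. The threshold cut through a dense part of the distribution, since 44 sites scored exactly 25 and 39 shared gene-end sites scored 24. Just inside it, Utrn had 25 reads per bin in both lists, and Zc3h11a had 22 in TG and 25 in WT. Wdr26 had 39 in TG and 25 in WT, and Tab2 had 30 in TG and 25 in WT. Just outside it, Tnfrsf10b had 39 in TG and 24.5 in WT, and Tram1 had 37 in TG and 24 in WT.

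**Figure D1:**
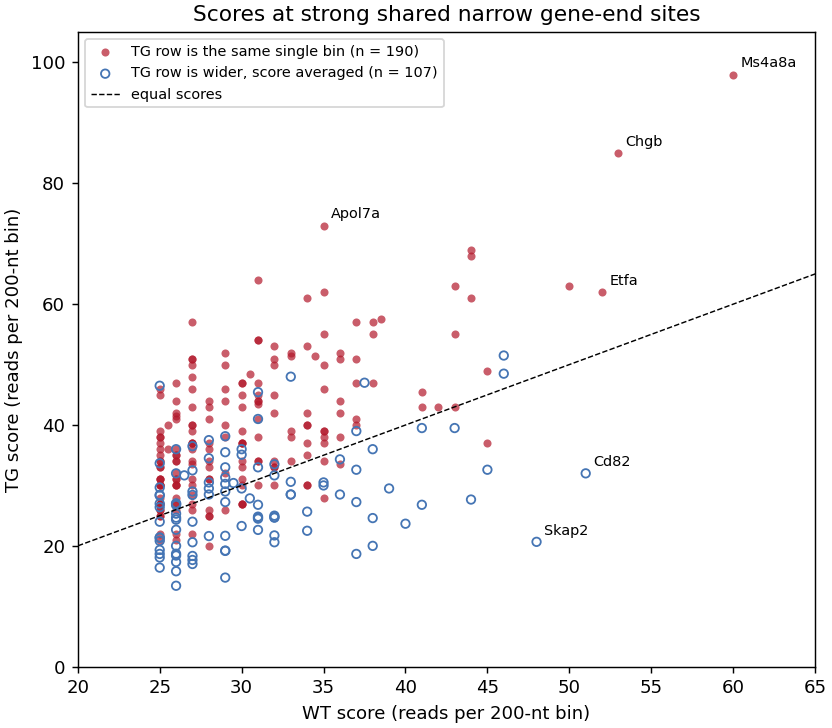
Score of each of the 297 strong gene-end sites in the TG list (vertical axis) against the WT list (horizontal axis). Both are read as reads per 200-nt bin. Filled points are the 190 sites whose TG row is the same single bin. Open circles are the 107 whose TG row is wider, labelled as averaged in the figure. The dashed line marks equal scores. Ms4a8a is highest in both lists (98 in TG, 60 in WT), and of the points below the line 67 are open circles and 22 are filled.

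Among the 297 sites the highest score in both lists lay in Ms4a8a, which encodes a membrane protein of the MS4A family, at chr19:11067511-11067710 on the minus strand (mm10, as for all positions here). It had 98 reads per bin in TG (exact Poisson 95% interval 79.6 to 119) and 60 in WT (45.8 to 77.2), and its midpoint lay 139.5 nt before the gene end. Chgb, which encodes the granule protein chromogranin B of enteroendocrine cells, followed at chr2:132794865-132795064 with 85 in TG and 53 in WT (39.7 to 69.3). Both genes had higher counts in TG, in lists of unknown depth. Intervals here cover counting error only; the list names point to removal of duplicate reads, and no molecular identifiers are recorded.

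Other high sites included Etfa, Adh6a and Eno1. Etfa, the alpha subunit of the electron transfer flavoprotein, had 62 reads per bin in TG and 52 in WT at chr9:55454594-55454793. Adh6a, an alcohol dehydrogenase, had 68 in TG and 44 in WT. Eno1, the glycolytic enolase, had 51.5 in TG, under a 400-nt row, and 46 in WT. All 3 were named because their WT scores were high.

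Further sites among the 15 highest in WT or the 10 highest in TG lay in genes of varied roles. Calm2, one of the calmodulin genes, had 69 in TG and 44 in WT. Igsf9, an immunoglobulin superfamily member, had 63 in TG and 50 in WT. Epcam, the epithelial cell adhesion molecule, had 63 in TG and 43 in WT at chr17:87649461-87649660. Clca4b, of the calcium-activated chloride channel regulator family, had 48.5 in TG, under a 400-nt row, and 46 in WT. It has a close paralog, Clca4a, which also held a strong gene-end site, so reads may be shared between them. Sft2d2 had 49 in TG and 45 in WT, and Gm1123 had 61 in TG and 44 in WT. Rpp40, a subunit of ribonuclease P, had 37 in TG and 45 in WT at the same single bin. Cd82, Skap2, Abhd2 and Tfrc were also among the 15 highest in WT, and there the TG score, given for a wider row, was lower. Their values were 32 in TG and 51 in WT for the tetraspanin Cd82, 20.7 in TG and 48 in WT for Skap2, 32.6 in TG and 45 in WT for Abhd2, and 27.7 in TG and 44 in WT for Tfrc.

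Whether TG and WT scores can be set side by side depended on the TG row. At 190 of the 297 sites (64.0%, 58.2 to 69.4, exact Clopper-Pearson 95% interval) the TG row was the very same 200-nt bin. At the other 107 the TG row was wider, with a median width of 600 nt and up to 3200 nt. How the score of such a row was formed is not recorded. It was not always a mean of whole counts over 200-nt bins. Skap2 had 20.6667 over 400 nt, which whole counts in its bins cannot average to. The wider rows reached upstream only at 44 sites, toward the gene end only at 37 and both ways at 26. At these 107 sites the median score was 27.25 in TG and 29 in WT, and TG was lower at 67 of them.

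At the 190 identical bins the median score was 38 in TG and 29 in WT. The TG score was higher at 162, equal at 6 and lower at 22 of them. The median TG over WT ratio was 1.26 (1.21 to 1.32), with a range of 0.714 to 2.11, and 48 sites (25.3%) had a ratio of at least 1.5. Over all 3935 identical single-bin pairs of the 2 lists the median ratio was 1.52, and 52.8% had a ratio of at least 1.5. TG was lower than WT at 3.23% of all pairs. The lowest single-bin score was 20 in TG and 15 in WT, and the WT single-bin median was 19. A pair with a WT score under 20 therefore cannot have a lower TG score, so the 3 background values are partly set by this floor. Since the WT score chose the sites, and depth differs by an unknown amount, these shares describe the selection and nothing is read from their distance to the background. Across the 190 bins the TG and WT scores had a Spearman rho of 0.575 and a Pearson r of 0.680, given as a description because all points share the same libraries.

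Strong shared narrow sites in gene interiors were picked with the same WT score threshold, so they offer a comparison set chosen alike. There were 440 of them, more than 2 kb from both ends. At the 301 interior sites with an identical TG bin the median ratio was 1.45 (1.42 to 1.5), and 45.2% had a ratio of at least 1.5, against 25.3% at gene ends. On the annotated strand of their gene 209 interior pairs had a median ratio of 1.47 (1.44 to 1.52), and off it 35 pairs had 1.37 (1.23 to 1.40). Strong sites within 2 kb of the other end of the span had a median ratio of 1.20 (1.14 to 1.25) at 57 pairs, with 10.5% at 1.5 or more. Weaker gene-end sites, with WT scores under 25, had a median ratio of 1.5 (1.47 to 1.52) at 643 identical bins. Their median WT score was 18, while no single-bin TG row scored under 20. At a WT score under 20 the ratio is above 1 by this floor, so 1.5 is not comparable with the strong sites. The gene-end median of 1.26 thus lay below the interior and above the other-end medians. The WT score chose every set, at 25 or more for the strong and under 25 for the weaker sites, and it is the divisor of the ratio. The intervals run over sites of 1 pooled list per genotype, so no difference between the sets was tested.

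In 8 genes an identical-bin pair was available both at the end and in the interior. The gene-end ratio was lower in 6 of them and higher in 2, with medians of 1.35 at the end and 1.60 in the interior. In Epcam the ratio was 1.47 at the end (63 in TG, 43 in WT) and 2.00 in the interior (66 in TG, 33 in WT). In Lrp6, a Wnt co-receptor, it was 0.900 at the end (27 in TG, 30 in WT) and 0.750 in the interior (24 in TG, 32 in WT). Within 1 gene both sites share the same transcript amount only if they lie on the same transcripts, which was not tested.

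**Figure D2:**
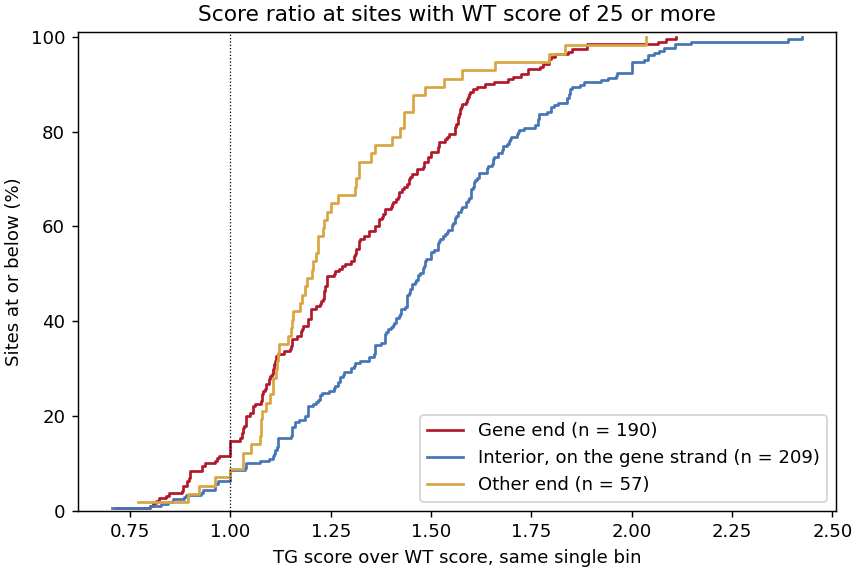
Cumulative share of sites (vertical axis, percent) at or below each TG over WT score ratio (horizontal axis), for sites of WT score 25 or more whose TG row is the same single bin; lines stand for 190 gene-end sites, 209 interior sites on the gene strand and 57 sites within 2 kb of the other end of the span, and the dotted line marks a ratio of 1. The medians are 1.26 at gene ends, 1.47 in the interior and 1.20 at the other end.

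The 5 highest ratios were in Isx, Apol7a, Dgat2, Tbca and Chka. Isx, an intestine-specific homeobox transcription factor, had 57 in TG and 27 in WT, a ratio of 2.11 (conditional 95% interval 1.31 to 3.47). Apol7a, of the apolipoprotein L family, had 73 in TG and 35 in WT, a ratio of 2.09 (1.38 to 3.22). Dgat2, a diacylglycerol acyltransferase that makes triglyceride, had 64 in TG and 31 in WT, a ratio of 2.06 (1.32 to 3.28). Tbca, a tubulin-folding cofactor, and Chka, a choline kinase, both had 51 in TG and 27 in WT. These genes were picked by their ratio, so the ratios describe the top of the range.

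The 5 lowest ratios all came from wider TG rows. Skap2, a Src kinase-associated adaptor, had 20.7 in TG over a 400-nt row and 48 in WT. Maoa, a monoamine oxidase, had 13.4 in TG over 600 nt and 26 in WT. Edem3, of endoplasmic reticulum quality control, Dennd4c, a Rab exchange factor, and Tmem135 completed the lowest 5, with ratios of 0.505, 0.509 and 0.526. The score of a wider row and that of a single bin are different quantities, and the part of row width in these values was not tested.

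The sites crowded toward the very end of the gene within the 2 kb window that the rule fixed. The median distance of the midpoint before the end was 484.5 nt (376.5 to 629.5), with quartiles of 182.5 and 1157.5 nt. Within the last 200 nt lay 85 sites (28.6%, 23.5 to 34.1), and within the last 400 nt 137 (46.1%, 40.4 to 52.0). At the far edge of the window, between 1800 and 2000 nt, lay 8. Weaker gene-end sites were more spread out, with a median of 729.5 nt (695.5 to 797.5), 17.7% (15.4 to 20.2) in the last 200 nt and 32.3% in the last 400 nt. Neither set was chosen by its place inside the window, but both share the libraries and no test was made. At 29 of the strong sites the row reached past the annotated end, and at 2 the midpoint lay beyond it (in Gm1123 its distance before the end was -83.5 nt).

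**Figure D3:**
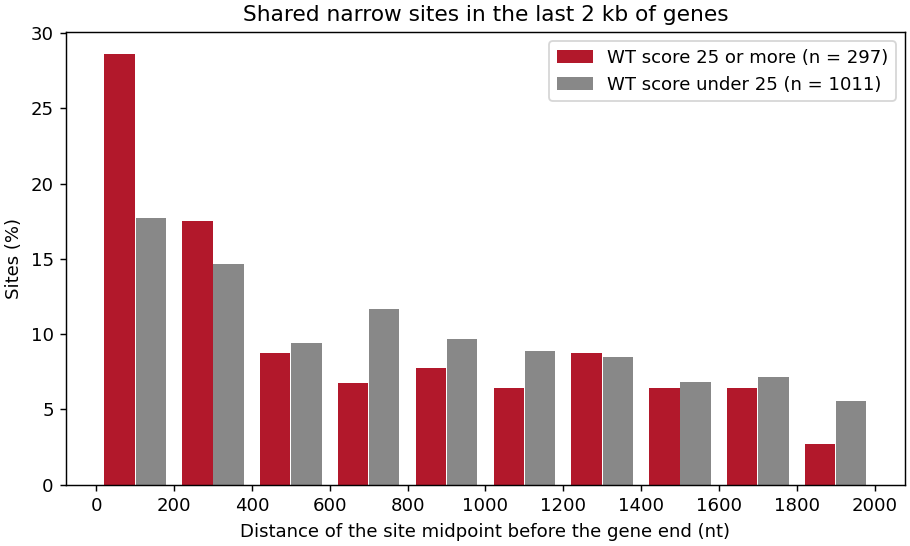
Share of sites (vertical axis, percent of the set) by the distance of the midpoint before the gene end (horizontal axis, nt, in steps of 200), for the 297 shared narrow sites with a WT score of 25 or more and the 1011 with a lower score; midpoints beyond the end are counted in the step nearest the end. The last 200 nt hold 28.6% of the strong and 17.7% of the weaker sites.

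Score did not follow distance in a single direction. In the last 200 nt the median score was 37 in TG and 30 in WT, and between 200 and 400 nt it was 31.2 in TG and 29.5 in WT. Between 1600 and 1800 nt it was 38 in TG and 30.5 in WT. The steps farther from the end hold 8 to 26 sites each.

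The strand of the reads was checked against the gene, which the rule did not use. A strand was known for the genes of 248 sites, and 247 of these (99.6%, 97.8 to 99.99) lay on the strand of the gene. Over all WT rows touching 1 protein-coding span the share was 84.3%, and over all TG rows 86.3%. Weaker gene-end sites gave 806 of 810 (99.5%, 98.7 to 99.9). Interior strong sites gave 299 of 365 (81.9%, 77.6 to 85.7). Sites within 2 kb of the other end of the span gave 9 of 48 (18.8%, 8.95 to 32.6). The end was defined by the strand of the reads, so a site read against the gene falls at the annotated start if it is counted here, and near the annotated end if it is counted at the other end.

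The exception was Polr3e, a subunit of RNA polymerase III, where the site lay on the minus strand at chr7:120918687-120918886 in a gene on the plus strand. It had 52 reads per bin in TG and 33 in WT, and lies near the annotated start of Polr3e. It was its gene's only row on that strand in either list.

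**Figure D4:**
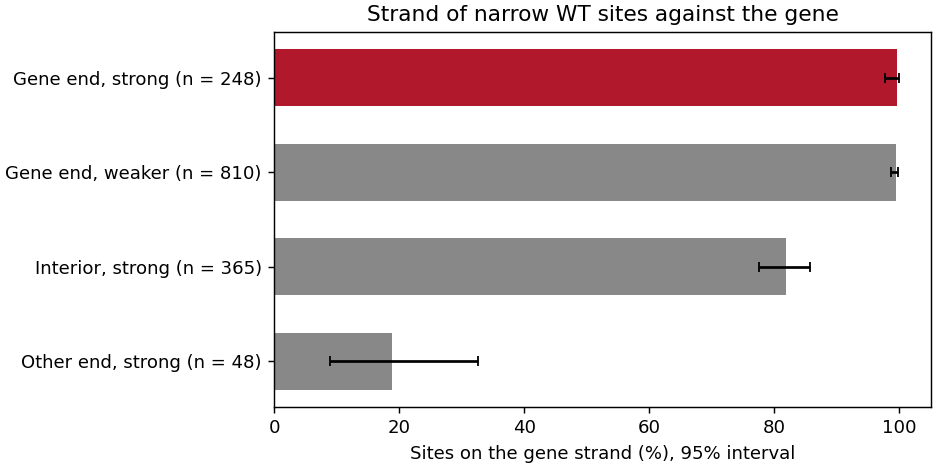
Share of narrow WT sites shared with TG that lay on the annotated strand of their gene (horizontal axis, percent), with exact Clopper-Pearson 95% intervals as error bars; from top to bottom, the strong gene-end sites (n = 248 with a known strand), the weaker gene-end sites (n = 810), strong interior sites (n = 365) and strong sites near the other end (n = 48). The share is 99.6% at strong gene ends and 18.8% at the other end.

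In 110 of the 286 genes the end site stood alone. Exactly 1 row on the strand was present in both lists in these genes (38.5%). Another TG row lay in 164 genes (57.3%, 51.4 to 63.1) and another WT row in 148 (51.7%, 45.8 to 57.7). Genes with weaker gene-end sites had nearly the same share with another WT row, 51.8%, and another TG row in 61.7%. Genes with strong interior sites had another TG row in 74.4% and another WT row in 69.0%, and those with strong sites at the other end had 21.0% for both lists. Genes with interior sites were also longer, with a median span of 59.7 kb against 29.3 kb, and the part of length in the counts was not tested. TG rows outnumbered WT rows in 96 genes, equalled them in 167 and were fewer in 23. For the 872 genes of weaker gene-end sites these numbers were 321, 484 and 67, and the whole TG list is the longer one. Another TG row fell within the last 2 kb in 118 genes (41.3%) and another WT row in 120 (42.0%). The shares were similar for genes of weaker gene-end sites, at 44.2% and 38.2%.

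Genes with lone sites included several of the highest. Chgb, Igsf9, Apol7a, Isx, Cd82, Skap2 and Rpp40 each had 1 row in both lists. By contrast, Clca4b held 15 TG and 12 WT rows. Tfrc, the transferrin receptor, held 11 TG and 10 WT rows.

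Pairs of strong sites in the same gene end were found in 11 genes, with gaps of 200 to 1600 nt between them. In Cox5a, a cytochrome c oxidase subunit, the site 133.5 nt before the end had 62 in TG and 35 in WT, and the one 733.5 nt before it had 43 in TG and 27 in WT. In Abhd2, a serine hydrolase, the site 1186.5 nt before the end had 32.6 in TG and 45 in WT, and the one 186.5 nt before it had 24.8 in TG and 31 in WT, both under 800-nt TG rows. In Tfrc the site 179.5 nt before the end had 27.7 in TG, under a 1200-nt row, and 44 in WT, and the one 1379.5 nt before it had 37 in TG and 25 in WT. In Cox5a, where all rows are single bins, the site nearer the end was higher in both lists.

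In 3 of the 11 genes a single 600-nt TG row covered both WT sites, so they are not separate TG values. These were Cat, the peroxisomal catalase (26.8 in TG, 41 and 31 in WT), Hadhb, a subunit of the mitochondrial trifunctional protein (30.5 in TG, 28 and 35 in WT), and Lpin2, a phosphatidate phosphatase (27.25 in TG, 29 and 37 in WT). The other named pairs were in Erlin2, Ankrd13a, Mgat4a and Isoc1.

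Roles of the genes were described with 20 lists made from gene symbols, which hold 120 of the 286 genes. The other 166 are in none. The lists are incomplete, so a share or rank below holds for the list and not for the whole class. For example, the kinase Chuk (39 in WT), the transcription factor Ubtf (43) and the ubiquitin ligase Neurl3 (43) are in none. Among all 3232 protein-coding genes of at least 10 kb with a WT row, 8.85% held a strong gene-end site. The share was above this in 12 lists, and the 95% interval held 8.85% in 19 of the 20. With 20 lists trimmed after their members were seen, these shares describe the lists and were not tested. Among the 1258 genes with a narrow WT row at the end the overall share was 22.7%, and the interval again held it in 19 lists, but the exception changed. There the respiratory chain gave 5 of 9 (55.6%, 21.2 to 86.3) and lipid and intermediary metabolism 14 of 33 (42.4%, 25.5 to 60.8).

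Nuclear-encoded genes of the respiratory chain and electron transfer had the highest share, 5 of 18 (27.8%, 9.69 to 53.5). In addition to Etfa and Cox5a they included Atp5pb, an ATP synthase subunit, with 45 in TG and 32 in WT, and Ndufs3, a complex I subunit, with 44 in TG and 31 in WT. All 6 sites of the list, 2 of them in Cox5a, had a higher TG than WT score at an identical bin, as did 162 of the 190 gene-end pairs. The site of Ndufs3 lay 116.5 nt before the end.

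The list of lipid and intermediary metabolism enzymes held 14 of 102 (13.7%, 7.71 to 21.96), with Eno1, Adh6a, Lpin2 and Dgat2 as given above. Site scores in the list ran between 21 and 68 in TG and between 25 and 46 in WT. Hadhb, Cpt1a and Cpt2 also held sites but are outside it. Glycosyltransferases and mucosal glycoproteins held 4 of 42 (9.52%). St3gal5, the sialyltransferase that makes the ganglioside GM3, had 41 in TG and 37 in WT, and Ugcg, the glucosylceramide synthase, had 34.3 in TG, under a 2600-nt row, and 36 in WT.

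Brush border genes, solute carriers, and ATPases and ion channels held sites at shares near the background. Brush border genes gave 2 of 21 (9.52%), among them Myo1a, a brush-border myosin, with 37.5 in TG, under a 400-nt row, and 28 in WT. Solute carriers gave 8 of 97 (8.25%). Slc43a2, an amino acid transporter, had 57 in TG and 37 in WT, Slc6a18, a neutral amino acid transporter, 51 in TG and 36 in WT, and Slc27a2, a fatty acid transport protein, 53 in TG and 32 in WT. ATPases and ion channels gave 6 of 59 (10.2%), among them Atp10b, a phospholipid flippase (47 in TG, 38 in WT), and Clcn3, a chloride-proton exchanger (39 in TG, 35 in WT). The adhesion and junction list gave 2 of 40 (5%), Epcam and F11r, the junctional adhesion molecule A (38.1 in TG, under a 1000-nt row, and 29 in WT). Nectin4 (32 in TG, 29 in WT) held a site but is outside this list.

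Membrane traffic was represented by small GTPases and their regulators, 12 of 77 (15.6%, 8.32 to 25.6), and by coat and sorting proteins, 11 of 94 (11.7%). Rab33b, a Golgi Rab, had 45.5 in TG and 41 in WT, Rab8b 55 in TG and 35 in WT, and Cdc42, a small GTPase of cell polarity, 30.6 in TG, under a 1400-nt row, and 33 in WT. Golm2, a Golgi membrane protein, had 57.5 in TG and 38.5 in WT, Clta, a clathrin light chain, 25.7 in TG, under a 400-nt row, and 34 in WT, and Sec22b, a SNARE protein, 28.5 in TG, under a 1000-nt row, and 33 in WT. The ubiquitin pathway list gave 14 of 118 (11.9%). Highest in WT within the list were Trim25 (30 in TG, under a 400-nt row, and 35 in WT), Ube2b (42 in TG, 34 in WT) and Marchf5 (51.5 in TG, 33 in WT). Chaperones gave 3 of 31 (9.68%), which were the disulfide isomerases Pdia3 (32.6 in TG, under a 600-nt row, and 37 in WT) and Pdia6 (22.7 in TG, under a 400-nt row, and 26 in WT) and Fkbp6 (35 in TG, 26 in WT).

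Signalling genes gave smaller numbers. In the Wnt, BMP, TGF-beta and Notch list 4 of 27 (14.8%, 4.19 to 33.7) held a site. Bmp8b, a BMP ligand, had 54 in TG and 31 in WT, Bmpr1a, a BMP receptor, 18.3 in TG, under a 400-nt row, and 27 in WT, and Lrp6 as given above. The kinase list gave 8 of 83 (9.64%). Highest in WT within the list were Camk2d (43 in TG, 42 in WT), Prkcd (39.5 in TG, under a 400-nt row, and 41 in WT) and Atm, the DNA damage kinase (33 in TG, 32 in WT). The 8 sites of the list ran between 20.8 and 54 in TG and between 25 and 42 in WT. Phosphatases gave 3 of 51 (5.88%), which were Ppp6r3 (52 in TG, 36 in WT), Ppp1r7 (34 in TG, 31 in WT) and Mtmr6 (32 in TG, 26 in WT).

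Genes of the nucleus, of RNA and of the cytoskeleton followed. The list of transcription factors and zinc finger proteins gave 12 of 148 (8.11%). Highest in WT within the list were Atf1 (23.7 in TG, under a 400-nt row, and 40 in WT), Zfp944 (28.5 in TG, under a 400-nt row, and 36 in WT) and E2f1 (40 in TG, 34 in WT). Chromatin regulators gave 4 of 54 (7.41%), among them Rbbp7 (43 in both lists), Kmt2d (39 in TG, 35 in WT) and Smarce1 (31 in TG, 30 in WT). The list of RNA-binding and mRNA turnover proteins, the class of MSI2 itself, gave 6 of 89 (6.74%). Among them were the helicase Dhx9 (43 in TG, 41 in WT), Hnrnpf (45 in TG, 30 in WT) and Ybx1 (33 in TG, under a 400-nt row, and 29 in WT). The RNA-binding proteins U2af1 (35 in TG, 34 in WT) and U2af2 (39 in TG, 33 in WT) also held a site but are outside the list. Translation factors and ribosomal proteins gave 2 of 17 (11.8%), Eif4e2 (47 in TG, 37 in WT) and Eif3e (48 in TG, 27 in WT). Cell cycle genes gave 1 of 22 (4.55%), E2f1, and cytoskeletal genes 2 of 46 (4.35%), Kif11, a mitotic kinesin (26 in TG, 29 in WT), and Myo1a.

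**Figure D5:**
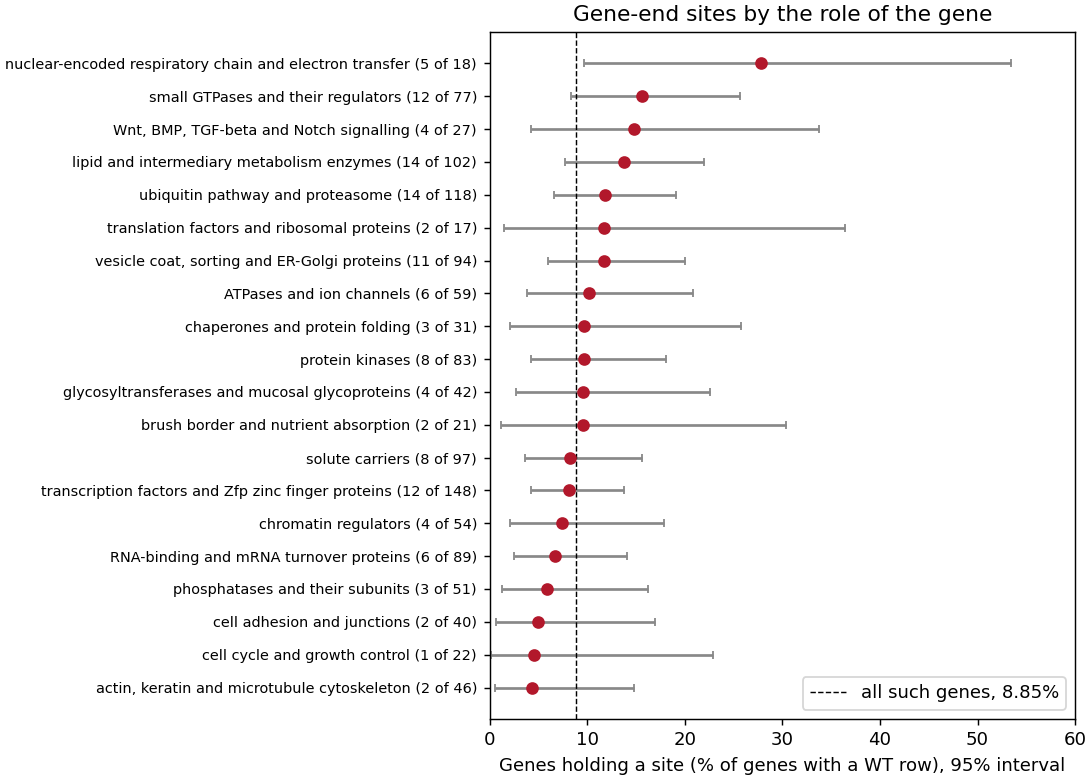
Share of genes that hold a strong shared narrow gene-end site (horizontal axis, percent of the list's protein-coding genes of at least 10 kb with a WT row), with exact Clopper-Pearson 95% intervals, for the 20 role lists in order of share; the numbers beside each name are genes with a site and genes with a WT row. The dashed line marks the share over all such genes, 8.85%, which lies inside the interval of every list but the respiratory chain one (9.69 to 53.5).

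Chosen from the TG side by the same rule, with the same score threshold, 650 TG sites in 608 genes qualified. Of the 297 WT-chosen sites 184 (62.0%) were among them, which is 28.3% of the TG-chosen sites. Of the 286 genes 189 were shared. The lowest single-bin score was 20 in the TG list and 15 in the WT list, so a threshold of 25 marks a different place in each list, and the 2 numbers of sites are not comparable.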

How the data were processed

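The deposited data are 2 peak lists in BED form, 1 per genotype, each made by the authors from 2 pooled libraries. A row gives coordinates and strand, with 1 field that joins score and p-value. The deposited score and p-value are the authors' own. That the score is reads per bin is read from the values, since single-bin scores are mostly whole numbers. Equal single-bin scores can carry different p-values, as in Loxl2 and Atp10b (both 38 in WT). Whether such scores merge several entries is not known. Per the submitters' processing notes, cutadapt and TopHat were used and both mm9 and mm10 are named; the coordinates fit mm10. The names of the deposited lists point to Piranha as the peak caller and to prior removal of duplicate reads; settings are not stated in the sources used here.

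Rows were assigned to spans of a RefSeq gene table (GRCm38.p6, 49980 placed genes, 21900 protein-coding). Gene strand came from the RefSeq promoter table and was known for 17492 protein-coding genes. Where several TG rows overlapped a site, the highest score was taken. Intervals are exact Clopper-Pearson for shares and binomial order-statistic intervals for medians, all at 95%. Scores have exact Poisson 95% intervals, in which fractional scores are treated as counts. The steps left 7627 narrow WT rows, 6672 shared, 4705 over 1 span, 4289 protein-coding, 3725 over at least 10 kb, 1308 near the end and 297 with the score. Site selection was checked on simulated rows.

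The rule for named genes took the 15 highest WT and 10 highest TG scores, the 5 highest and 5 lowest ratios, up to 10 genes with 2 sites, 3 genes per role list, 5 sites on each side of the threshold, off-strand sites and markers. The members and lists were chosen with earlier results of these data known. No genome sequence was used here, so the planned motif count was not made. Python 3.11.15, numpy 2.4.6, pandas 2.3.3 and scipy 1.17.1 were used. Some items that the rule would name are not reported here.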

Additional observations from a re-analysis of the deposited data

How the results depend on the processing

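With a score minimum of 20 there were 644 sites in 595 genes, with a median TG score of 30, a median ratio of 1.33 and a median distance of 641.5 nt. With a minimum of 30 there were 143 sites in 141 genes, with a median TG score of 39. Requiring a TG row with the same start and end left 190 sites, and dropping the width limit gave 606. With a window of 1 kb the median distance was 260.5 nt, as the narrower window sets, and 100% lay on the gene strand. The other alternatives, 38 of 50, stayed within 1.5 times the count or inside the 95% interval of the median or share. They include 206 sites with the 1 kb window, 208 with spans of at least 20 kb and a median distance of 376.5 nt with a minimum of 30. Some of the 38 could not change the result, so the number is no measure of stability. All sites already met the p-value cut of 0.001. No site had a shifted single-bin TG row or more than 1 TG row, so longer or longest overlap changed nothing. For the 20 role lists, the share over the overall share stayed inside its wide counting interval with the second background. The Wnt, BMP, TGF-beta and Notch list fell to 1.10 times the overall share there, against 1.67 times, and protein kinases stood at 0.951 there, against 1.09. The cause of the differences was not tested beyond these definitions. Restricting to the annotated strand and taking the TG row of longest overlap were chosen after seeing the data. No paired analysis was possible because each list pools its libraries; for the same reason no library could be left out. The motif alternative was not run.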
